A study of Mus musculus with 6 samples.

Results

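The nuclear genes of the respiratory chain and the ATP synthase were taken as all genes whose symbols begin with Nduf, with Sdha, Sdhb, Sdhc or Sdhd, with Uqcr, with Cox and a digit from 4 to 8, or with Atp5, in splicing tables of mouse hepatocytes. The rule found 78 of the 7182 genes in the tables. They had 285 of the 32799 local splicing variations (LSVs), and 272 of these, in 76 genes, were present for both diets. An LSV gathers the splice junctions, and a retained intron where there is one, at 1 end of a reference exon, and each junction or intron is called an entry here. The hepatocytes were isolated from male C57BL/6J mice. One group ate a high-fat diet (HFD) with 60% fat and the other a low-fat diet (LFD) with 10% fat, with 3 libraries each. Both diets lasted 12 weeks and followed chow with 13.5% fat, which all mice had up to an age of 8 weeks. The libraries were stranded mRNA libraries, per the labels' protocols. The labels do not say whether each library came from 1 mouse.

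The respiratory chain passes electrons from NADH and succinate to oxygen and pumps protons across the inner mitochondrial membrane, and the ATP synthase uses the proton gradient to make ATP. Complex I takes electrons from NADH, complex II from succinate, complex III passes them to cytochrome c, and complex IV hands them to oxygen. Hepatocytes are rich in mitochondria and use this machinery for gluconeogenesis, urea synthesis and the oxidation of fatty acids. Most subunits are encoded in the nucleus and are joined with the help of assembly factors.

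Each entry had 1 PSI value per diet, the fraction of the LSV's reads that use the entry, with a posterior variance. The authors had pooled the 3 libraries of a diet. In what follows ± is the posterior SD, which covers the reads and not the animals, and differences are HFD minus LFD. No spread between libraries and no replicate test could be had. PSI in these tables runs from 0.0125 to 0.9875, so an entry at the lower limit took nearly none of its LSV's reads and an entry at the upper limit nearly all of them. PSI is a share of the reads of 1 LSV and not a level. In such bulk samples a change within hepatocytes and a change in the mix of cells cannot be told apart.

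The alternative segments that differ between forms within coding sequence are shown first, for the genes in which the reading of the minor form turns on them. Each line gives the spliced mRNA from 5′ to 3′, with the alternative segment in capitals and 12 bases of the flanking exons in lower case. Coordinates are those of the segment in GRCm38 (mm10), and the sequences are from GENCODE vM21 transcripts. Ndufs6 was chosen after its values were seen.
Ndufa7 exon, chr17:33825601-33825650, plus strand: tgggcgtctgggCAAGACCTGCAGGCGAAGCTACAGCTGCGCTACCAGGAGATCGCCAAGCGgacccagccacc
Ndufa11 exon part, chr17:56721319-56721358, plus strand: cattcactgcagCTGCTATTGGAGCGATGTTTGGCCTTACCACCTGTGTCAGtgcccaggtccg
Ndufs6 exon extension, chr13:73328278-73328338, minus strand: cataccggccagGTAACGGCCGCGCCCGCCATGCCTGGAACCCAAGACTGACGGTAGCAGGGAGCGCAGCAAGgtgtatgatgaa
Sdhb exon part, chr4:140966495-140966500, plus strand: gtcggcctgcagTTTCAGgcctgtcgaggg
Uqcr10 extra exon, chr11:4703904-4703989, minus strand: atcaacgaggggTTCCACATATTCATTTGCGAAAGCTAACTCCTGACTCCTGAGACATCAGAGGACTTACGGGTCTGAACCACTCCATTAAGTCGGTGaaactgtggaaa
Cox7a2l extra exon, chr17:83503931-83503999, minus strand: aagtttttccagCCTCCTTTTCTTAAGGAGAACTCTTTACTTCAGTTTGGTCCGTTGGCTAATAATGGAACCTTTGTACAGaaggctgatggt
Ndufaf5 exon, chr2:140202866-140202949, plus strand: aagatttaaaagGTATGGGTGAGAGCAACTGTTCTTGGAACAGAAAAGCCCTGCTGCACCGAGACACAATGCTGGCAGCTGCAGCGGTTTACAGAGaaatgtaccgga

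Differences in splicing between the diets were small in this gene set. None of the 272 LSVs differed by at least 0.2 in PSI with the difference past a 95% margin, while 0.624% of the 26910 LSVs of all genes did. At so low a share, finding none among 272 LSVs is near the background. The margin is that of a normal distribution with the summed posterior variances of both diets. With a minimum of 0.1 there were 3 such LSVs, against 4.17% of all LSVs, and with 0.05 there were 11, against 9.87%. The 3 LSVs were in Ndufs1, which encodes the large iron-sulfur subunit of complex I, in Atp5j, coupling factor 6 of the ATP synthase, and in Ndufaf6, a complex I assembly factor. The largest difference of an LSV had a median of 4.6e-06 in the gene set and 0.00681 over all LSVs. The largest difference stayed at or under 0.01 in 215 LSVs and, by gene, in 44 of 76 genes. A further 23 genes lay between 0.01 and 0.05, and 9 reached 0.05. The matching shares over all genes are not given here, but the median of 0.00681 means that most LSVs of all genes also stayed under 0.01. Taken per gene, the largest difference had a median of 0.00634 in the gene set and 0.0310 over all genes. The same entry had the highest PSI on both diets in all 272 LSVs. This also held for 26678 of the 26910 LSVs of all genes, so the count in the gene set is near the background.

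**Figure D1:**
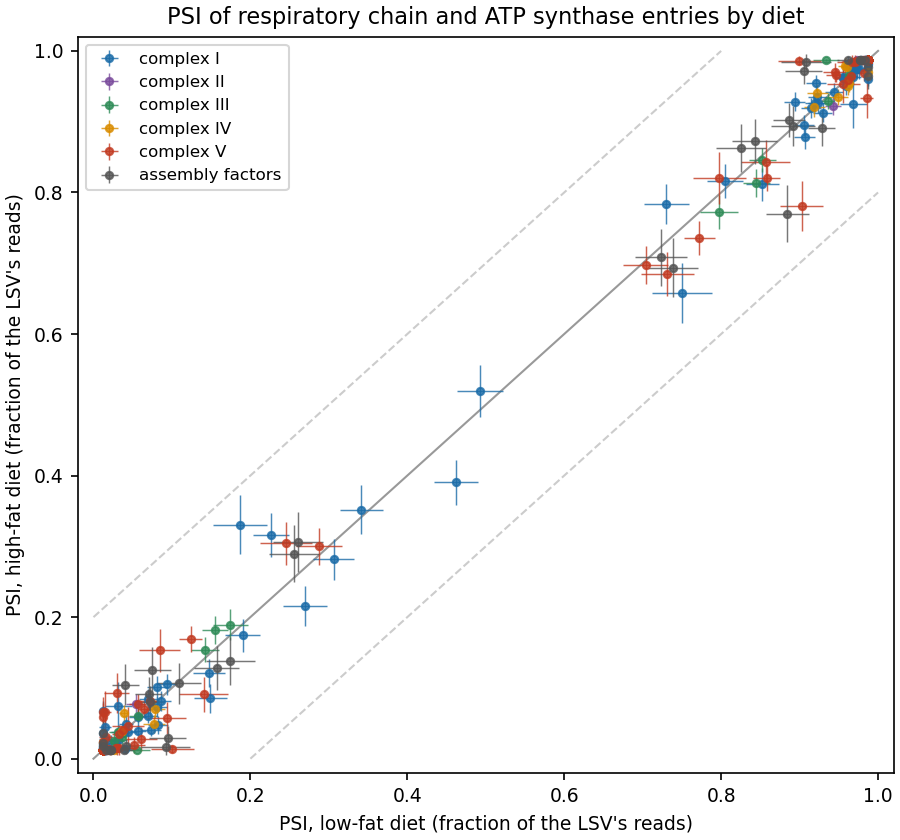
PSI on HFD (vertical axis) against PSI on LFD (horizontal axis) for the 719 entries of the gene set, as fractions of an LSV's reads. Points are coloured by complex, bars are posterior SDs, the solid line marks equality and the dashed lines a difference of 0.2. All points lie between the dashed lines and most sit at the limits of the scale.

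These values went with a low share of LSVs in which more than 1 form was used. An LSV was called split when its leading entry had a mean PSI of the diets under 0.95. Of the 272 LSVs, 43 (15.8%) in 24 genes were split, against 27.2% of all LSVs. Among split LSVs alone the median of the largest difference was 0.0344 in the gene set and 0.0456 over all genes. The leading entry was under 0.8 in 10 LSVs, 3.68% against 8.76% of all. The posterior SDs were no wider than those of the other genes. At 39 entries with PSI from 0.1 to 0.9 on both diets, the median posterior SD was 0.0289 for HFD and 0.0284 for LFD, and over the 7126 such entries of all genes it was 0.0321 for HFD and 0.0286 for LFD. The effective number of reads behind these 39 entries had a median of 220 for HFD and 245 for LFD, and over all genes it was 169 for HFD and 220 for LFD.

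The members were then grouped by complex. Complex I had 33 genes with 125 LSVs, of which 17 were split. Ndufa4 was counted there by its name, although its protein is known as a subunit of complex IV. Complex II had 4 genes with 19 LSVs, 1 of them split. Complex III had 7 genes with 22 LSVs and 4 split, complex IV 10 genes with 30 LSVs and 3 split, and complex V 15 genes with 59 LSVs and 8 split. The 7 assembly factors had 17 LSVs, and 10 of them (58.8%) were split. Their median largest difference was 0.0257, while it was 1.37e-06 over the 255 LSVs of subunits. With only split LSVs counted, the medians lay closer, at 0.037 for assembly factors and 0.0286 for subunits. Posterior SDs at the largest difference were wider for assembly factors, with medians of 0.0176 on HFD and 0.0172 on LFD. For subunits they were 3.88e-05 on HFD and 2.46e-05 on LFD. The part of this precision in the medians was not tested.

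**Figure D2:**
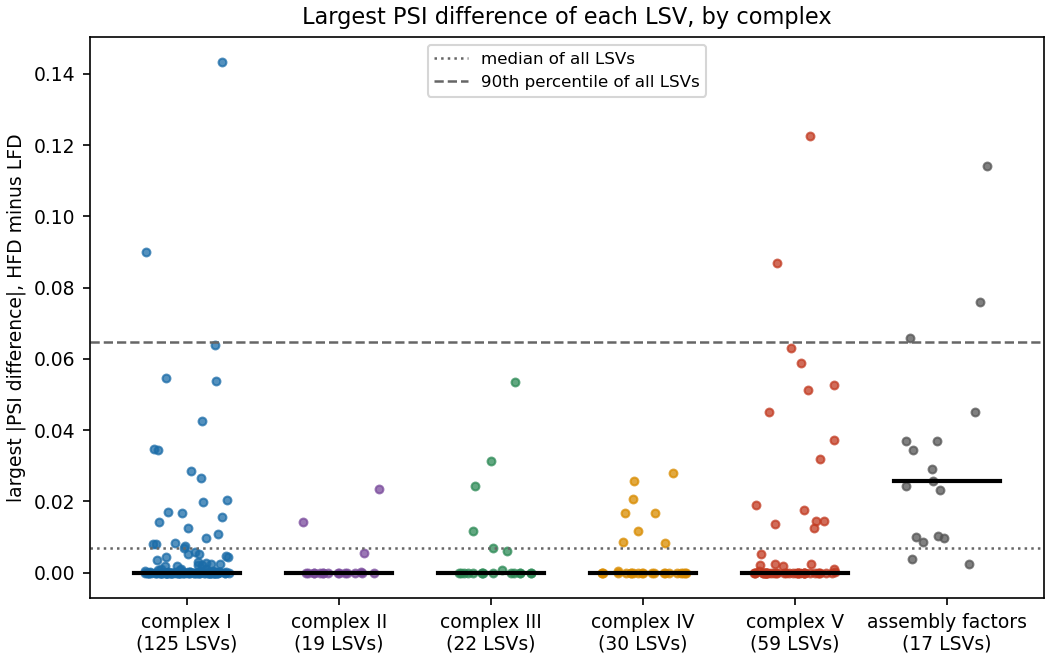
Largest absolute PSI difference between HFD and LFD in each LSV (vertical axis, fraction) for the 6 groups of genes. Each point is 1 LSV, thick bars are medians, and the dotted and dashed lines mark the median and the 90th percentile (0.0647) over all LSVs. The medians of complexes I to V lie near 0 and that of assembly factors at 0.0257.

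In complex I the largest differences were in the leader of Ndufs1, upstream of the coding span. The gene lies on the minus strand of chromosome 1 and had 15 LSVs, the most of any member. Exons A (147 nt), B (97 nt), C (104 nt) and D (66 nt) follow each other in transcript order. Between A and B lies an interval of 61 nt that is not an intron of Ndufs1 in vM21. An annotated exon spans it, and no junction of A to B was listed. B was entered over this interval in 0.926 ± 0.0346 of reads on HFD and in 0.968 ± 0.0172 on LFD. The rest, 0.0744 on HFD and 0.0318 on LFD, came over a junction from further upstream. The junction of B to C lies at chr1:63172257-63176428 (mm10). Of the reads that left B, 0.330 ± 0.0419 went to C on HFD and 0.187 ± 0.0345 on LFD, a difference of 0.143 that passed the margin. The share of B that was joined directly to D was 0.657 ± 0.0424 on HFD and 0.750 ± 0.0382 on LFD, within the margin. Leaving A, the order was the other way round for C, with 0.0851 ± 0.0202 on HFD and 0.149 ± 0.0206 on LFD, a difference of -0.0639 past the margin. On HFD exon C thus took a larger share of the reads leaving B and a smaller share of those leaving A. No LSV had C as its reference exon, so the shares of the reads entering C are not known. Of the reads that entered D, 0.316 ± 0.0310 came from B on HFD and 0.226 ± 0.0228 on LFD, past the margin. Those from A made up 0.391 ± 0.0319 on HFD and 0.462 ± 0.0286 on LFD, and those from C 0.282 ± 0.0289 on HFD and 0.306 ± 0.0263 on LFD, both within the margin. The interval between A and B was kept in 0.352 ± 0.0348 of the reads leaving A on HFD and in 0.341 ± 0.0271 on LFD. No leading entry changed, and all 4 exons were in use on both diets. A total of 7 entries of Ndufs1 had the same coordinates as entries of Ino80dos on the opposite strand.

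**Figure D3:**
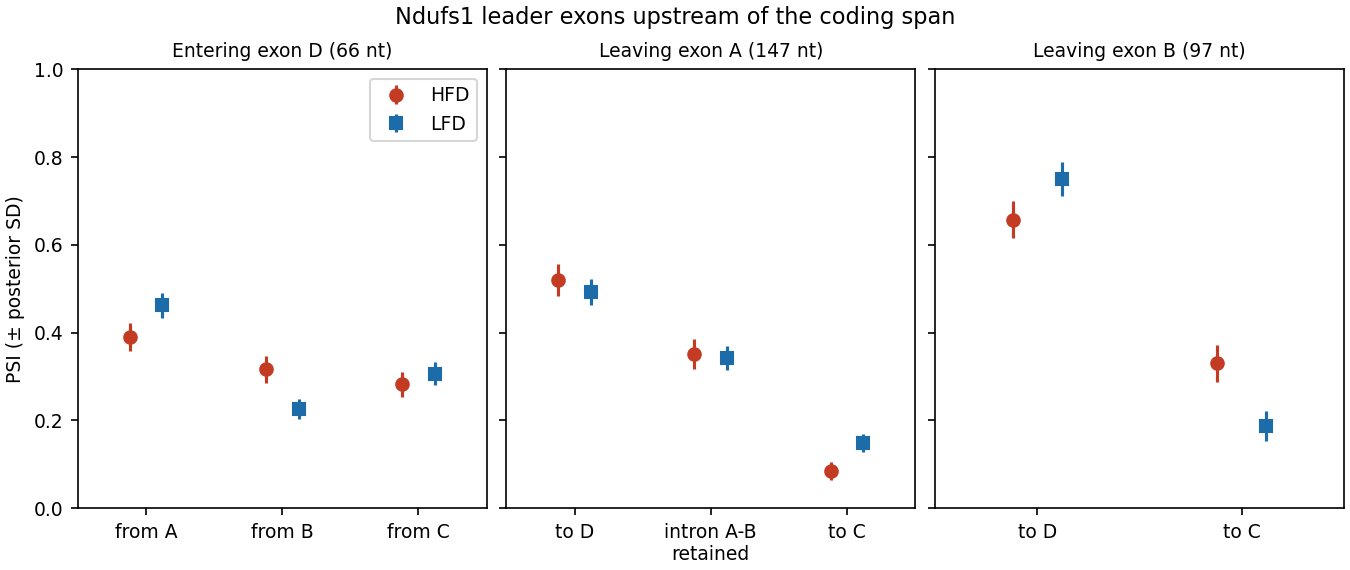
PSI (vertical axis, fraction) of the entries that join the Ndufs1 leader exons A, B, C and D, with HFD to the left of LFD and bars of 1 posterior SD. The 3 panels show reads entering D, leaving A and leaving B. The entry labelled as intron A-B is the interval between A and B. The junction of B to C stands at 0.330 on HFD and 0.187 on LFD.

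Ndufs8, an iron-sulfur core subunit, had a 5′ splice site in its leader with a PSI of 0.0672 ± 0.0148 on HFD and of 0.0125, the lower limit, on LFD, a difference of 0.0547 past the margin. A site of the same exon that lies 3 nt away had 0.121 ± 0.0193 on HFD and 0.147 ± 0.0207 on LFD, and the main site had 0.812 ± 0.0231 on HFD and 0.852 ± 0.0207 on LFD, both within the margin. Ndufb2, an accessory subunit of the membrane arm, had a pair of 5′ splice sites 4 nt apart downstream of the coding span. The longer form took 0.216 ± 0.0286 on HFD and 0.270 ± 0.0283 on LFD, a difference of -0.0539 within the margin.

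Minor forms of other complex I subunits changed the coding sequence and differed little. Ndufa7, an accessory subunit, left out the 50-nt exon printed above in 0.0399 ± 0.00833 of reads leaving the exon before it on HFD and in 0.0731 ± 0.0127 on LFD. This difference of -0.0333 passed the margin but is under 0.05. Without the exon the frame shifts, and the reading from the annotated start codon stops after 40 codons in place of 113. Ndufa11, an accessory subunit of the membrane arm, left out a 40-nt exon part in 0.101 ± 0.0152 of reads on HFD and in 0.0808 ± 0.0131 on LFD, and the reading then stops after 76 codons in place of 143. Ndufs6, a zinc-binding accessory subunit, had its exon extended by 61 nt in 0.105 ± 0.0145 of reads on HFD and 0.0942 ± 0.0128 on LFD. That form stops after 48 codons in place of 124. Both differences were within the margin.

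Several further subunits of complex I were chosen after their values were seen. Ndufs4, an accessory subunit, left out a 79-nt exon in 0.0584 ± 0.0131 of reads on HFD and 0.0565 ± 0.0117 on LFD, which leaves 37 of 175 codons before a stop. Ndufa5 left out an exon of 117 nt in 0.0732 ± 0.0137 on HFD and 0.0807 ± 0.0126 on LFD, with the frame kept. Ndufv3, an accessory subunit of the NADH module, took up a long exon of 1092 nt in 0.0609 ± 0.0112 of reads leaving the exon before it on HFD and 0.0691 ± 0.0116 on LFD. Entering the exon after it, the long exon had 0.0849 ± 0.0132 on HFD and 0.0700 ± 0.0119 on LFD, which is the other direction. That exon keeps the frame and raises the reading to 468 codons, against 104 codons without it. The differences of all 3 genes were within the margin, on either side for Ndufv3. Ndufv1, the subunit that binds NADH, had 6 LSVs with a largest difference of 0.0265, and Ndufs3, a core subunit, had 8 LSVs with a largest difference of 0.0197. Ndufa10, an accessory subunit, had 7 LSVs with a largest difference of 0.00518.

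**Figure D4:**
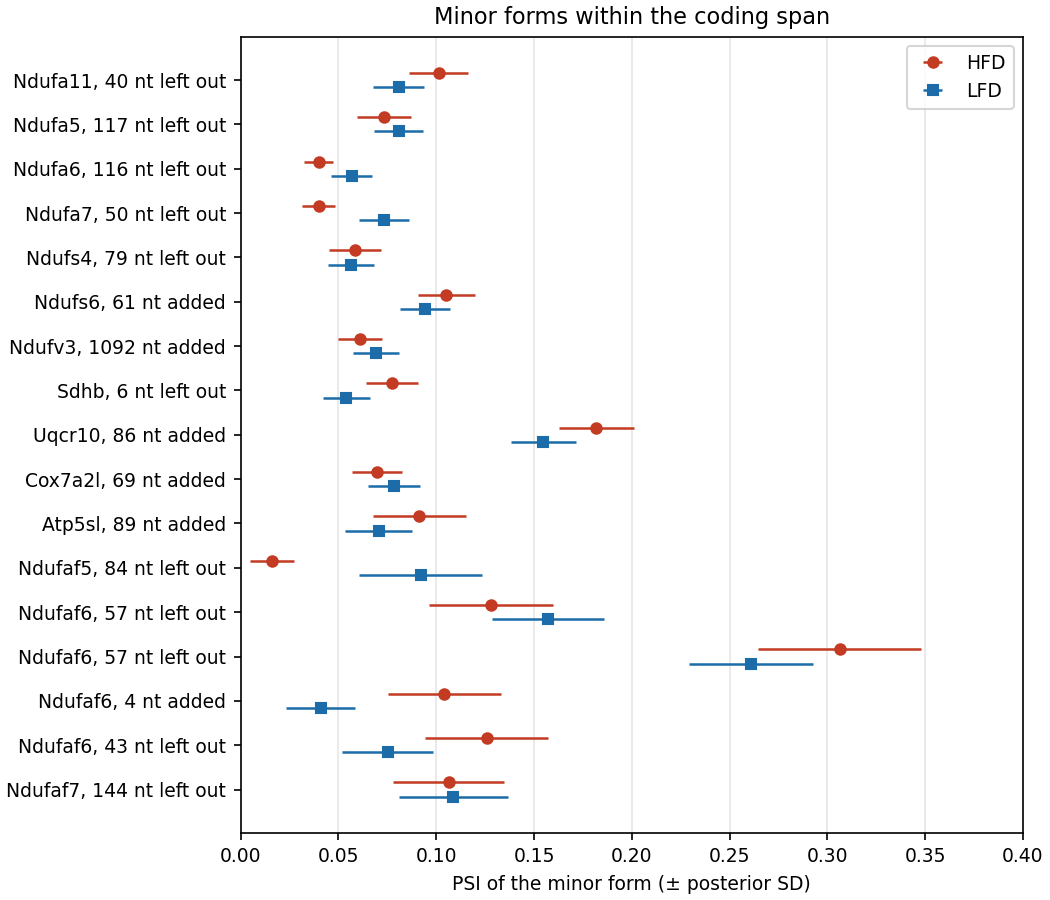
PSI of the minor form (horizontal axis, fraction, ± posterior SD) for the 17 alternative segments within coding spans, with HFD circles above LFD squares. The labels give the gene, the length of the segment and whether the minor form adds it or leaves it out. The highest value is 0.306, for an Ndufaf6 exon on HFD, and the bars of most pairs overlap.

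Over the gene set, 17 alternative segments of split LSVs in 14 genes could be placed within a coding span and read through a coding transcript. The length was divisible by 3 for 8 of them. The other 9, in 8 genes, shifted the frame, and each gave fewer codons before a stop than the major form. In 8 of these 9 the stop lay before the last exon join. These readings assume that the rest of the transcript is as annotated.

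In complex II the largest difference was in Sdhb, the iron-sulfur subunit of succinate dehydrogenase. The first 6 bases of an exon, printed above, were left out in 0.0773 ± 0.0134 of reads on HFD and in 0.0540 ± 0.0120 on LFD, a difference of 0.0233 within the margin. The form keeps the frame and lacks 2 codons (280 in place of 282), and its junction is not an intron of Sdhb in vM21. Sdha, the flavoprotein, and Sdhc, a membrane anchor, had 7 LSVs each, with largest differences of 5.56e-07 in Sdha and 0.0143 in Sdhc.

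In complex III the largest difference was in Uqcr10, a small subunit. An extra exon of 86 nt, printed above, was joined to the exon after it in 0.182 ± 0.0193 of reads on HFD and in 0.155 ± 0.0169 on LFD. From the exon before it, the share was 0.154 ± 0.0175 on HFD and 0.142 ± 0.0173 on LFD. Both differences were within the margin. With this exon the reading stops after 58 codons in place of 64. Entering the extra exon, the junction had 0.987 ± 0.00177 on HFD and 0.934 ± 0.0164 on LFD, a difference of 0.0536 that passed the margin. The same LSV listed a retained interval of 103 nt beside it, which is not an intron of Uqcr10 in vM21. This interval had 0.0125 on HFD and 0.0559 ± 0.0156 on LFD, past the margin but under 0.05. A further junction had 0.0125 on HFD and 0.0130 on LFD. Read leaving the upstream exon, the interval was at 0.0125 on both diets. Uqcrc1 and Uqcrc2, the core proteins, had 5 LSVs each, with differences of at most 4.68e-06 in Uqcrc1 and 7.63e-09 in Uqcrc2. Uqcrq, a further small subunit, was split in its leader, where an interval of 79 nt was kept in 0.773 ± 0.0239 of reads leaving the upstream exon on HFD and in 0.797 ± 0.0246 on LFD. An annotated exon of Uqcrq spans that interval in vM21.

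In complex IV no LSV reached 0.05. Cox7a2l is known for joining complexes III and IV, and C57BL/6J mice are known to carry a short allele of it. It took up an extra exon of 69 nt in 0.0697 ± 0.0128 of reads entering the next exon on HFD and in 0.0783 ± 0.0132 on LFD. Leaving the exon before it, the share was 0.0491 ± 0.0127 on HFD and 0.0771 ± 0.0136 on LFD, and both differences were within the margin. The exon keeps the frame and lengthens the reading to 134 codons, against 111 without it. Cox4i1, the main isoform of subunit 4, used a 5′ splice site 20 nt downstream, before the coding span, in 0.0643 ± 0.0114 of reads on HFD and in 0.0386 ± 0.00584 on LFD. That difference of 0.0257 passed the margin but is under 0.05. Cox5b, a subunit on the matrix side, had 4 LSVs with a largest difference of 0.0207.

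In complex V the largest difference was again upstream of a coding span, in Atp5j. Atp5j lies on the minus strand of chromosome 16 and had 7 LSVs. The junction at its 5′ end, chr16:84834983-84835421, took 0.780 ± 0.0352 of the reads leaving the upstream exon on HFD and 0.903 ± 0.0274 on LFD, a difference of -0.122 past the margin. Read from the exon it enters, the same junction had 0.844 ± 0.0311 on HFD and 0.857 ± 0.0314 on LFD. An interval of 122 nt there was listed as a retained intron, although it is not an intron of Atp5j in vM21. It was kept in 0.153 ± 0.0308 of reads leaving the upstream exon on HFD and in 0.0842 ± 0.0259 on LFD. Entering the next exon it was kept in 0.0910 ± 0.0248 on HFD and in 0.141 ± 0.0312 on LFD, so that the sign of the difference depended on the exon read from. A junction that starts 47 nt further upstream had 0.0653 ± 0.0214 on HFD and 0.0126 ± 0.00166 on LFD, a difference of 0.0527 past the margin. In vM21 the gene Gabpa, on the opposite strand, overlaps this end of Atp5j. The part of its reads in these values was not tested.

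Subunit c, which forms the rotor ring, is encoded by several genes with the same mature protein. Atp5g1 joined an exon to the more distant of its upstream splice sites over a junction that crosses the edge of the coding span. This junction had 0.304 ± 0.0310 of reads on HFD and 0.245 ± 0.0331 on LFD, a difference of 0.0587 within the margin. Atp5g3, the most evenly split gene of the complex, used a 5′ splice site that adds 10 nt to its leader in 0.30 ± 0.0264 of reads on HFD and in 0.287 ± 0.0288 on LFD. Atp5h, subunit d of the stalk, had 4 LSVs with a largest difference of 0.0190. Atp5c1, the gamma subunit, was chosen after its values were seen. Its exon junctions were at the limit of the scale, with a largest difference of 5.03e-06 over 4 LSVs.

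Atp5o, the subunit that links the catalytic head to the stator, needs a reservation. It had 12 LSVs, the most of complex V, and 7 of them have a reference exon outside the span that vM21 gives the gene. No other member had such an LSV. Its largest difference, in 0.986 ± 0.00576 on HFD and 0.90 ± 0.0277 on LFD, was at 1 of these. The entries of Atp5o shared coordinates with 10 entries of Cryzl1 and 10 of Gm10785, and 2 more with Itsn1. These values cannot be assigned to Atp5o with certainty. The span in vM21 is chr16:91925214-91931687 on the minus strand, and 5 LSVs lie inside it. The annotation also has a read-through gene under the same symbol, which reaches over Cryzl1. Without the 7 LSVs, 13 of 265 LSVs reached a difference of 0.05, against 15 of 272 with them and 14.3% of all LSVs. This count has no condition on the margin.

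Assembly factors had the highest share of split LSVs. These lay in 4 of the 7 genes, and all 6 LSVs of Ndufaf6 were among the 10. Ndufaf6 lies on the minus strand of chromosome 4 and had 6 LSVs. Its main 5′ splice site at an exon in the coding span, used by the junction chr4:11070322-11073144, had 0.770 ± 0.0404 on HFD and 0.884 ± 0.0275 on LFD, a difference of -0.114 past the margin. The main site was thus used less on HFD. The rest went to a site that leaves out 43 nt, with 0.126 ± 0.0315 on HFD and 0.0751 ± 0.0231 on LFD, and to a site that adds 4 nt, with 0.104 ± 0.0291 on HFD and 0.0408 ± 0.0177 on LFD. Both shift the frame and stop after 96 and 101 of 333 codons, and neither difference passed the margin alone. An exon of 57 nt was left out in 0.306 ± 0.0418 of reads on HFD and in 0.261 ± 0.0317 on LFD, with the frame kept. A further 57-nt exon was left out in 0.128 ± 0.0315 on HFD and in 0.157 ± 0.0288 on LFD. Neither of these differences passed the margin. Of the reads that entered the first of these exons, 0.0290 ± 0.0176 on HFD and 0.0947 ± 0.0233 on LFD came over the junction chr4:11066707-11068056, a difference of -0.0657 past the margin. That junction is not an intron of Ndufaf6 in vM21. The rest came over the main junction chr4:11066707-11070200, with 0.971 ± 0.0176 on HFD and 0.905 ± 0.0233 on LFD. Of the reads leaving the exon upstream, the main junction had 0.708 ± 0.0402 on HFD and 0.723 ± 0.0327 on LFD, within the margin.

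Ndufaf5, which modifies a core subunit of complex I, left out the 84-nt exon printed above in 0.0160 ± 0.0112 of reads on HFD and in 0.0920 ± 0.0315 on LFD. The difference of -0.0759 passed the margin, the frame is kept, and the junction is not an intron of Ndufaf5 in vM21. Atp5sl, an assembly factor of complex I despite its name, had a junction into an 89-nt exon with 0.0914 ± 0.0237 of the reads leaving the exon before it on HFD and 0.0706 ± 0.0171 on LFD. The junction out of that exon was lower and differed the other way, with 0.0176 ± 0.0105 of the reads entering the next exon on HFD and 0.0417 ± 0.0129 on LFD, and both differences were within the margin. Read through, the exon shifts the frame and leaves 100 of 258 codons. Sdhaf2, which helps attach the flavin to Sdha, had 3 LSVs with a largest difference of 0.0257, and Ndufaf3, an early complex I factor, had 2 with a largest difference of 0.0232.

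LSVs were also placed by the coding span. Of the 272 LSVs, the entry of largest difference was upstream of the coding span in 23, within it in 234, downstream in 3, across an edge in 5 and outside the gene in 7. Of the 15 LSVs that reached 0.05 with or without the margin, 7 were upstream, 4 within, 1 downstream, 1 across an edge and 2 outside the gene. Of the 43 split LSVs, 14 were upstream and 25 within the coding span. Whether these shares differ was not tested.

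A junction between a pair of exons can stand in the LSV of each, with a different set of competing reads. There were 173 such entries, and in 132 of them the difference on at least 1 side was at most 0.001, so that its sign says little. In 17 entries the differences were at least 0.01 on both sides. Of these, 7 had opposite signs, in Ndufs1, Atp5j, Ndufaf6, Atp5sl and Ndufa7, and 10 had the same sign, among them others of Atp5j, Ndufaf6 and Ndufa7. The junction of A to D of Ndufs1 was 1 of the 7: leaving A it had 0.519 ± 0.0364 on HFD and 0.493 ± 0.0288 on LFD, while entering D it was lower on HFD, with all these differences within the margin. The junction of B to D was another of them. Its difference was 0.0899 entering D, past the margin, and -0.0930 leaving B, within the margin.

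Retained introns of the gene set were low on both diets. There were 61 intron entries for 36 intervals in 26 genes, with lengths of 23 to 185 nt. Not all of these intervals are introns of their gene in vM21. Among those that are not were the shortest, of 23 nt in Atp5g3 and 29 nt in Ndufv1. The Ndufv1 interval is part of a longer stretch that the junction chr19:4007915-4008048 removes. The median PSI was at the lower limit of 0.0125 on HFD and on LFD. The mean PSI of the diets was under 0.05 in 53 entries (86.9%), against 68.3% of intron entries of all genes. A difference of at most 0.01 was found in 49 entries (80.3%), against 49.7% of all intron entries. A difference of at least 0.05 was found in 1, the Atp5j interval of 122 nt above, while 15.2% of all intron entries had one. Of the 8 entries with a mean PSI of at least 0.05, that of Ndufa10 was at 0.987 on HFD and 0.987 on LFD, and an annotated Ndufa10 exon spans it. The Atp5j interval of 59 nt had 0.970 ± 0.0134 on HFD and 0.945 ± 0.0145 on LFD, and annotated exons span it too, as they do the Ndufs1 and Uqcrq intervals described above. Read entering the exon after it, the Ndufs1 interval had 0.926 ± 0.0346 on HFD and 0.968 ± 0.0172 on LFD, a difference of -0.0425 opposite in sign to that of the reads leaving A and within the margin. The Uqcrq interval read in this way had 0.929 ± 0.0119 on HFD and 0.936 ± 0.00817 on LFD, also within the margin. The highest values for intervals with no annotated exon across them were those of the 122-nt Atp5j interval.

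The authors' own comparisons were looked up for these genes. The authors' deposited table of PSI changes (dPSI) had 124 LSVs and 0 of the gene set, and 0.296% of all LSVs in the PSI tables were in that list. At that share about 1 of 285 LSVs would be listed, so the count of 0 is near the background. The table of events from JUM, a further splicing program, held 470 events with p under 0.05. The gene set held 2 of these events, and the authors' deposited table gave 0 of them an adjusted p under 0.05, which 17.7% of the listed events passed. With 2 events, 0 is near that share as well. The authors' deposited table gave the Cox4i1 5′ splice site above a change of 0.0250 with p = 0.0227 and adjusted p = 0.280. For a composite event at the leader of Atp5j the authors' deposited table gave p = 0.0147 and adjusted p = 0.220, with changes from -0.0385 to 0.0406 over 6 parts. The table's title sets HFD against NC livers, whereas the heading over the changes has LFD, and the heading was followed.

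Few LSVs were present for 1 diet only. The HFD table alone held 2 (0.730% of its LSVs of the gene set), in Atp5f1 and Atp5o, while 1.94% of all LSVs of that table were absent for LFD. The LFD table alone held 11 (3.89%), against 16.6% of all. Assembly factors had 10 of these 11, with 4 in Ndufaf5, 2 in Atp5sl and 1 each in Ndufaf1, Ndufaf4, Ndufaf6 and Ndufaf7, and the last was in Ndufv3. An LSV can be missing for want of reads, and read depth is not given, so no direction was read from these counts. The genes of these counts outside the naming rule were chosen after their values were seen.

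Other genes of the pathway were taken from further lists. Electron carriers had 4 genes with 21 LSVs, and none differed by more than 0.0113. For an intron of Cyc1, cytochrome c1, the authors' deposited table of JUM events gave a change of 0.0308 with p = 0.0033 and adjusted p = 0.0894. Assembly and maturation factors outside the symbol rule had 31 genes with 115 LSVs and a median largest difference of 0.00672. None passed the minimum of 0.2, and 16 passed that of 0.05 and the margin, beside the 9.87% over all genes. Tmem70, which helps build the rotor ring of the ATP synthase, had the largest difference of this list. Its main junction had 0.985 ± 0.00755 on HFD and 0.835 ± 0.0265 on LFD, a difference of 0.150 past the margin. Ttc19, a complex III factor, had 0.780 ± 0.0383 on HFD and 0.905 ± 0.0211 on LFD at a junction, a difference of -0.125 past the margin. Cox16, a complex IV factor, had 0.522 ± 0.0303 on HFD and 0.409 ± 0.0259 on LFD, a difference of 0.114 past the margin. For Cox20, also of complex IV, a retained intron had 0.160 ± 0.0233 on HFD and 0.251 ± 0.0253 on LFD, a difference of -0.0907 past the margin. In the authors' deposited table of JUM events, 3 events were in this list, and 1 passed the adjusted p, an intron of Higd1a with a change of 0.115 and adjusted p = 0.0280. The genes named here were chosen after their values were seen.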

How the data were processed

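Hepatocyte RNA of 3 HFD and 3 LFD libraries was sequenced. The submitters' processing notes name FastQC, STAR and the build mm10, with versions not given in the sources used here. The PSI tables came from MAJIQ and voila per the file headers, and the authors deposited PSI as a fraction with its posterior variance, pooled per diet. Per the file headers, the authors' p-values, adjusted p-values and changes came from JUM, and the dPSI table gives a change and a probability. Depth per library is unknown, so precision is given by posterior SDs. The effective number of reads is PSI × (1 − PSI) / variance − 1. The scripts used Python 3.11.15, pandas 2.3.3 and numpy 2.4.6, and the PSI rule (a difference of at least 0.2 past the 95% margin) was tested on simulated data. LSVs were matched between diets by ID. Exons and sequences came from GENCODE vM21 (GRCm38), matched by gene ID for all 76 genes. LSV ends were read in transcript order, since the source and target words of the IDs follow genome coordinates on the minus strand (197 LSVs). JUM end coordinates lie 2 below the exon start.

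Genes named by rule are those in the authors' comparison tables, those past the PSI rule, the 20 with the largest difference at a posterior SD under 0.05, the 10 with the highest retained intron, and in each complex the genes with most LSVs and with the most even split, 28 in all. The members and lists were chosen with earlier results of these data known. Alternatives were other minimum differences, other margins, the exclusion of LSVs, and the gene as the unit.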

Additional observations from a re-analysis of the deposited data

How the results depend on the processing

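No LSV of the gene set passed the PSI rule at a minimum of 0.2. The largest difference was 0.143, so at this minimum no other margin and no choice among the LSVs could give another count. These settings were a margin of 3 times the root of the summed variances, no condition on the variance, and a posterior SD under 0.05. The others were annotated junctions only, no assembly factors, and no LSVs outside their gene's span, the last chosen after seeing the data. Only a lower minimum could move the count. With a minimum of 0.1 there were 3 and with 0.05 there were 11. The median largest difference of 4.6e-06 came to 0.00634 with the gene as the unit, against 0.0310 over all genes. The median of the gene set was 0.0344 for LSVs with a leading PSI under 0.95, a restriction chosen after seeing the data that keeps only LSVs with more than 1 form in use. Counting every event of the authors' deposited JUM table gave 2, and at an adjusted p under 0.01 there were 0. LSVs of 1 diet numbered 10 in place of 13 when a shared junction counted as presence. The median difference of retained introns was -0.00343 at a mean PSI of at least 0.05 and 0 over all. No paired analysis was possible because the tables hold no values per library, and for the same reason no library could be left out. Posterior SDs limit what can be seen: near a PSI of 0.1 to 0.9 a difference had to exceed 0.0793 at the median SDs to pass the margin. Listing of the same coordinates under genes on both strands limits Atp5o, Ndufs1 and Cox4i1.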

Other observations

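The tables also hold genes that mark other forms or cells. Of 8 subunit isoforms known from muscle, heart, lung, testis or hypoxic cells (Cox4i2, Cox6a2, Cox6b2, Cox7a1, Cox7b2, Cox8b, Cox8c and Ndufa4l2), 0 had an LSV on either diet. This counts LSVs and not RNA, since a gene spliced in 1 way or at a low level has none. Of hepatocyte markers 8 of 8 had an LSV on both diets, of macrophage markers 1 of 5, of endothelial markers 1 of 5, of stellate cell markers 0 of 4 and of bile duct markers 0 of 4. Their part in the PSI values was not tested.

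Entries with the same coordinates were listed under genes on opposite strands in 1332 of 48801 cases over all genes, although the library kit is a stranded one per the labels' protocols. In the gene set this held for 21 of 546 entries by coordinates, and 33 were listed under any other gene. Besides Atp5o and Ndufs1 these were in Cox4i1, Ndufa13, Ndufb2 and Ndufb8. Of 658 spliced entries of the gene set, 459 matched an intron of the gene in vM21. Among those with a mean PSI of at least 0.05, 295 of 312 did.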
